A study of Mus musculus with 2 samples.

Results

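The c-Jun N-terminal kinases (JNK) and the AP-1 transcription factors were followed through 10 genes on 2 expression arrays of a mouse osteosarcoma line. The genes were the kinases Mapk8 and Mapk9, the FOS family members Fos, Fosb, Fosl1 and Fosl2, the JUN family members Jun, Junb and Jund, and the phosphatase gene Dusp1. Every probe set annotated with 1 of these symbols and no other was taken, which gave 20 of the 45101 probe sets on the array and 10 of the 18193 genes. No probe set with several symbols carried any of them.

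The 2 samples were MOS-J cells, an established osteosarcoma line, grown in culture. By their sample labels, the control cells carried a control lentivirus and the DKK1 cells a lentivirus with the human DKK1 gene, which encodes a secreted inhibitor of Wnt co-receptors. Both groups had 1 array each, so the values below carry neither a replicate error nor a p-value. A positive difference means a higher signal on the DKK1 array. The protocol also describes a plasmid route with stable lines beside the lentiviral one with drug-selected clones, and it leaves unsaid which route applies to the arrays and whether the cells were 1 clone or a mixture. The comparison asks how levels of these messenger RNAs differ when the tumour cells carry human DKK1.

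AP-1 is a dimer of basic leucine zipper proteins, a JUN protein paired with a FOS, JUN or ATF protein, that binds short palindromic DNA sites. JNK phosphorylates JUN and ATF2 and so raises the activity of AP-1, and Wnt signals that do not pass through beta-catenin can activate JNK. Fos, Fosb, Jun, Junb and Dusp1 are immediate early genes, induced within minutes by serum, growth factors or stress, while Fosl1 and Fosl2 come later and last longer. In bone, FOS is a classic driver of osteosarcoma in mice. JNK activity is set by phosphorylation of the kinase, which an array of messenger RNA does not measure.

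Promoters are shown for Fos and Dusp1, which had the largest differences here, and for Jun, which went the same way by less. Each runs from 250 bases before the annotated start to 50 bases after it, from RefSeq on GRCm38.p6, written 5′ to 3′ along the gene. Capitals mark matches to TGACGT, the core of a cyclic AMP response element, to the full element TGACGTCA, which contains the core on both strands, and to TGACATCA, the AP-1-like letters known from the JUN promoter. The Fos promoter is at chr12:85473640-85473939 on the plus strand, that of Dusp1 at chr17:26508423-26508722 on the minus strand and that of Jun at chr4:95052173-95052472 on the minus strand.
Fos: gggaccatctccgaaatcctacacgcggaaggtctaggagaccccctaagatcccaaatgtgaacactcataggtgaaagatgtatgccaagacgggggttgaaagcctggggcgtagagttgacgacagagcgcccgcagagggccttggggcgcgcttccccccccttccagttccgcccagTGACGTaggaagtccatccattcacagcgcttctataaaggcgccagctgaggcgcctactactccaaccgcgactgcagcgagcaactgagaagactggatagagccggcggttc
Dusp1: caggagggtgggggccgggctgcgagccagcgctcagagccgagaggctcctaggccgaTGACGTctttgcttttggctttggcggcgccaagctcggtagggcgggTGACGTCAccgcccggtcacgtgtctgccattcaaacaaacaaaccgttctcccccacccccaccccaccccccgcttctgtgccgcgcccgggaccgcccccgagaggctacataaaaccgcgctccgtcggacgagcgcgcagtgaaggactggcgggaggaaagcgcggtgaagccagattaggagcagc
Jun: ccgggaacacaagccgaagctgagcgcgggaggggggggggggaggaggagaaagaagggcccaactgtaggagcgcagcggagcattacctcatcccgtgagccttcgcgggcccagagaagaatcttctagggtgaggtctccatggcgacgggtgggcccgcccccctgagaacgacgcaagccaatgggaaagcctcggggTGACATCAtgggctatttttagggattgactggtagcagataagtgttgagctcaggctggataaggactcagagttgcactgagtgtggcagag

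Positions are counted from the annotated start, with the base before it as -1. The Fos promoter held TGACGT on its own strand at -66 to -61. The Dusp1 promoter held TGACGT at -191 to -186 and the full TGACGTCA at -143 to -136. Jun had TGACATCA at -45 to -38. Both strands were searched, and TGACGT was found in 7.51%, TGACGTCA in 1.79% and TGACATCA in 3.62% of the 32851 promoter entries of the same length. Of the 9 members with an entry, Mapk8 was the only other with 1 of these motifs, TGACGT at -36 to -31 in its entry at chr14:33447109-33447408, minus strand, and its other entry held none. The AP-1 site TGACTCA and the CArG box, the binding sequence of serum response factor, were in none of the 10 member entries, against 5.20% and 1.63% of all entries. These matches are letters in a window and were not measured as binding sites. Sequence outside the window was not searched, so a motif absent here, such as the CArG box in Fos, may lie further from the start.

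The values are MAS5 signals, 1 per probe set on a linear intensity scale, and signals of different probe sets are not comparable with each other. The difference was taken on log2(signal + 16.6), DKK1 less control, a scale that pulls dim probe sets towards 0. Probe sets whose mean over both arrays fell short of 71.3, the median over all probe sets, were set aside, and the others are called measured. A gene was called where its mean difference reached 1 on the log2 scale, or 2-fold, and all its measured probe sets shared the sign. Of the 20 member probe sets 17 were measured, covering 9 of the 10 genes; Fosb was not measured. Of the 11058 measured genes, 11.7% were called higher and 6.91% lower in the DKK1 cells, 18.6% in all. Against this background, 2 of the 9 measured members were called higher, Dusp1 and Fos, and 0 lower. The median difference of the 9 was 0.43, and that of all measured genes was 0.10. With 9 genes, 2 calls are too few to set the members apart from the rest.

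Facts about the 2 arrays bear on the size of every difference. Both arrays had a mean signal of 500.0 after the highest and lowest 2% were left out, so the arrays were scaled alike on average. The 18 hybridisation controls, RNAs added after labelling, differed by a median of -0.37 between the arrays, and the 20 poly-A controls above the filter, RNAs carried through labelling, by 0.64. Scaled on the hybridisation controls, the median of all genes was 0.46, and scaled on the poly-A controls it was -0.52. Where a scaling turned the sign of a member, its values are given beside it. Of 14 osteoblast markers 8 were measured, with 2 called higher and 1 lower. Omd (7.02) and Tnfrsf11b (3.68) were the higher ones and Phex (-3.54) the lower one. The Omd control signal (44.8) and the Phex DKK1 signal (1.97) were below the filter. With dim signals raised to the filter, Omd had 6.80 and Phex -1.49, and the call of Phex ended without the filter (-1.70). Not called were the collagen gene Col1a1 (0.79, SD 1.05 between 2 probe sets), the phosphatase gene Alpl (147 on the control and 182 on the DKK1 array) and the transcription factor gene Sp7 (87.0 and 117). The leukocyte marker Ptprc was below the filter in both, at 2.11 and 5.89 by 1 probe set and 11.7 and 4.24 by the other. The 12 leukocyte and osteoclast markers summed to 1521 on the control and 1104 on the DKK1 array, with 5 measured, 1 called higher and 2 lower; without the protease gene Ctsk they summed to 847 and 1088. The 5 adipocyte markers summed to 1104 and 3158, with Pparg and Fabp4 called higher, where the call of Fabp4 ended without the filter (0.74) and on the poly-A controls (0.69), while Adipoq, a defining marker of adipocytes, was below the filter at 0.796 and 7.89. Such sums weigh bright probe sets most and do not measure the amount of a cell type. The part of such cells in the member differences was not tested. In such bulk samples fewer cells of a kind and less RNA per cell cannot be told apart.

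**Figure D1:**
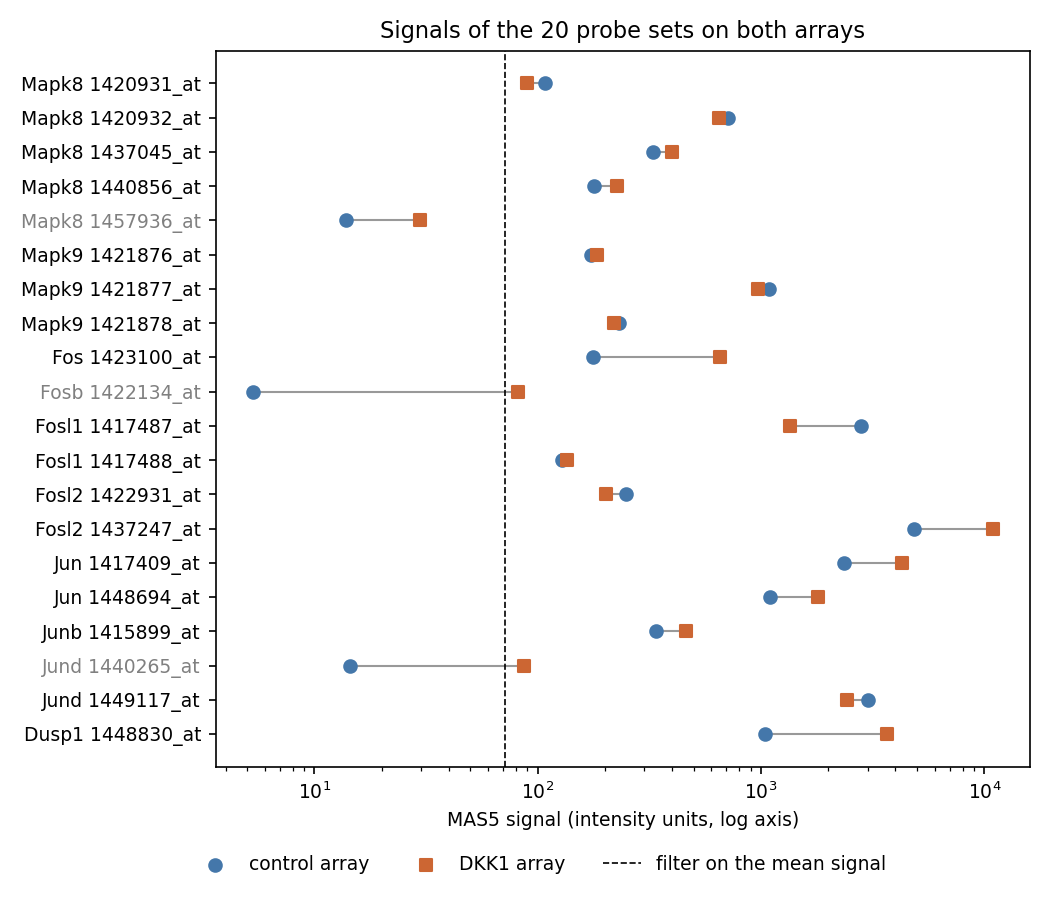
Signals of the 20 probe sets of the 10 genes on the control array (circles) and the DKK1 array (squares), in MAS5 intensity units on a log axis. The dashed line is the filter of 71.3 on the mean of both signals, and the 3 probe sets named in grey did not reach it. Fos and Dusp1 stand far apart between the arrays, and the symbols of the measured Mapk8 and Mapk9 probe sets lie close together.

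Messenger RNA of the JNK kinases differed by little between the 2 arrays. Mapk8, which encodes JNK1, had 4 measured probe sets. Their signals on the control and DKK1 arrays were 108 and 89.7 (1420931_at), 708 and 646 (1420932_at), 329 and 397 (1437045_at) and 179 and 227 (1440856_at). The first pair was lower and the second pair higher in the DKK1 cells, and the mean difference was 0.06 with an SD of 0.27 between probe sets. The remaining Mapk8 probe set, 1457936_at, was too dim to count, at 13.8 and 29.8.

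Mapk9, which encodes JNK2, was just as flat. Its 3 probe sets had signals of 173 and 183 (1421876_at), 1089 and 972 (1421877_at), and 231 and 219 (1421878_at). The mean difference was -0.05 with an SD of 0.12 between probe sets. Over both kinases the 7 measured probe sets lay between -0.23 and 0.32, with 3 above 0 and 4 below. The sign of either kinase has no meaning at this size, since it changed with the scaling: Mapk8 went from -0.54 on the poly-A controls to 0.40 on the hybridisation controls, and Mapk9 from -0.66 to 0.30. Neither was called under any of the 11 alternatives.

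The FOS family split. Fos, the founding member, whose short-lived messenger RNA follows growth factor stimulation, was read by 1 probe set, 1423100_at, at 176 on the control and 652 on the DKK1 array. That is 3.69-fold by the plain ratio and a difference of 1.79, larger than those of 96.4% of all measured genes. The call held under all 11 alternatives, with differences from 1.19 on the poly-A controls to 2.14 on the hybridisation controls. Some of these could not change a bright gene with 1 probe set, such as dropping the filter or taking the brightest probe set (both 1.79). All reuse the same 2 arrays. The call rests on 1 probe set on 1 array per group.

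Fosb, the other rapidly induced FOS gene, was read at 5.29 on the control and 81.9 on the DKK1 array (1422134_at), with a mean under the filter. Only the DKK1 signal lay above 71.3, and with the control signal raised to that level the fold was at least 1.15. Among the 15585 probe sets with 1 symbol below the filter, 2.34% differed by as large a plain ratio in either direction. Fosb was therefore not called, and its level in the control cells has only an upper bound.

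Fosl1 and Fosl2, which encode FRA-1 and FRA-2 and lack the transactivation domain of FOS, each had a pair of probe sets that gave different answers. For Fosl1 the signal of 1417487_at went from 2807 to 1343, which is -1.05 on the log2 scale, while the dimmer 1417488_at had 128 and 136, a difference of 0.08. The mean was -0.49 with an SD of 0.80 between the 2 probe sets, and the gene was not called. Fosl2 went the other way in its bright probe set: 1437247_at went from 4853 to 10904, which is 1.17. Its dimmer probe set, 1422931_at, had 247 and 202, or -0.27. The mean was 0.45 with an SD of 1.02, and the gene was not called either.

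Both genes would be called by their brightest probe set alone, Fosl1 as lower at -1.05 and Fosl2 as higher at 1.17. By that choice 8.34% of all genes were called lower and 12.0% higher. Scaled on the poly-A controls Fosl1 was also called lower, at -1.09, as were 24.1% of all genes there, and Fosl2 lay at -0.17. Of the 2919 genes with 2 measured probe sets, 7.71% had a range between them as wide as that of Fosl1 (1.13) and 3.77% as wide as that of Fosl2 (1.44), against a median range of 0.34. The signals do not say which probe set reports the gene better, and the cause of the disagreement was not tested.

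**Figure D2:**
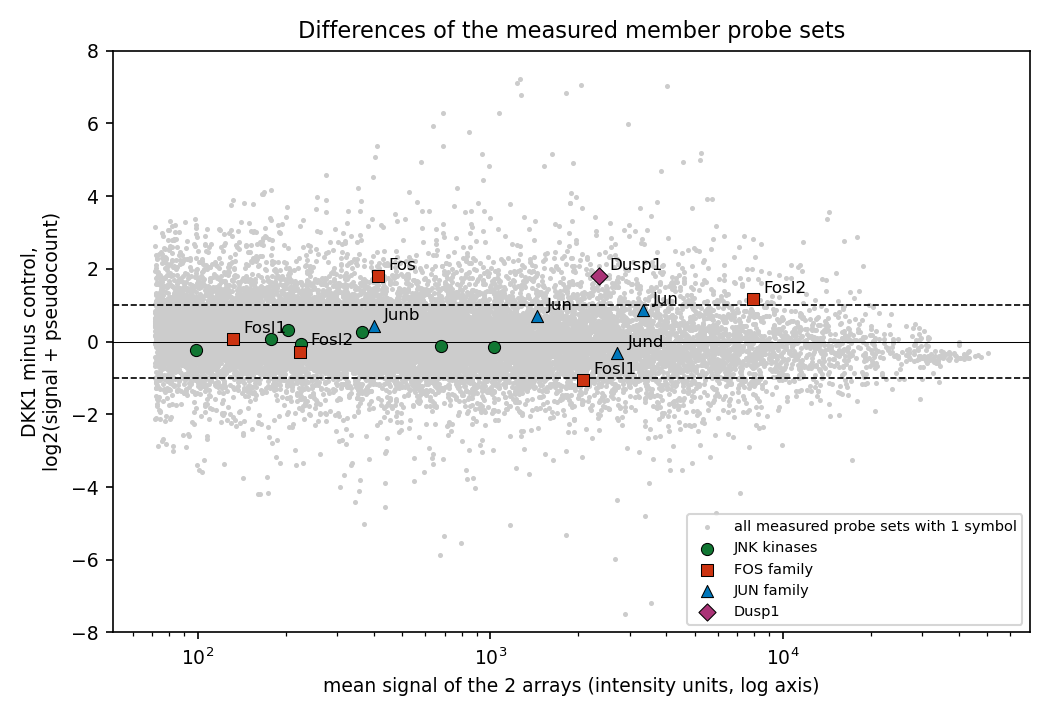
Difference between the arrays, DKK1 minus control in log2(signal + 16.6), against the mean signal on a log axis, for the 17 measured member probe sets (coloured symbols) over all 19360 measured probe sets with 1 symbol (grey). Dashed lines mark 2-fold; Fos (1.79), Dusp1 (1.81) and the bright Fosl2 probe set (1.17) lie above the upper line and the bright Fosl1 probe set (-1.05) below the lower one.

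The JUN family leaned towards higher signals for Jun and Junb and a lower one for Jund, with no call. Jun encodes the main JNK substrate, and its protein can switch on its own gene. Its probe sets agreed: 1417409_at went from 2344 to 4290 and 1448694_at from 1098 to 1790. The differences were 0.87 and 0.70, with a mean of 0.78 and an SD of 0.12 between probe sets, short of 2-fold. The value depended on the scaling, at 1.15 and called higher on the hybridisation controls, as were 21.6% of all genes there, and at 0.15 on the poly-A controls, though it stayed above 0 under all 11 alternatives.

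Junb, which can restrain JUN and is active in bone-forming cells, went from 338 to 461 (1415899_at), or by 0.43, which turned to -0.18 on the poly-A controls. Jund, the most constantly expressed of the family, went from 3020 to 2424 by its bright probe set, 1449117_at, or -0.32. Its other probe set, 1440265_at, had 14.5 and 86.6 and did not pass the filter. With that probe set included, the mean of Jund was 0.71, so its sign rests on the filter; on the hybridisation controls it was also above 0, at 0.06.

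Dusp1 encodes a nuclear phosphatase (MKP-1) that removes the activating phosphates from JNK and p38 and is itself induced by the signals it ends. Its 1 probe set, 1448830_at, read 1038 on the control and 3682 on the DKK1 array, 3.55-fold by the plain ratio. The difference was 1.81, larger than those of 96.5% of all measured genes and next to that of Fos. The call held under all 11 alternatives, from 1.18 to 2.18, though as for Fos some of them could not change a bright gene with 1 probe set.

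Set in order of the difference, the members ran Dusp1 (1.81), Fos (1.79), Jun (0.78), Fosl2 (0.45), Junb (0.43), Mapk8 (0.06), Mapk9 (-0.05), Jund (-0.32) and Fosl1 (-0.49). Over the 4978 genes with several measured probe sets, the pooled within-gene SD was 0.45. Of the 8 gaps between neighbours only that between Fos and Jun, at 1.01, exceeded it, and the widest of the others was 0.38. That SD describes agreement of probes within these arrays, not the spread between cultures. Of the 17 measured probe sets 3 were past 2-fold upwards and 1 past 2-fold downwards, against 12.1% and 7.51% of all 19360 measured probe sets.

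**Figure D3:**
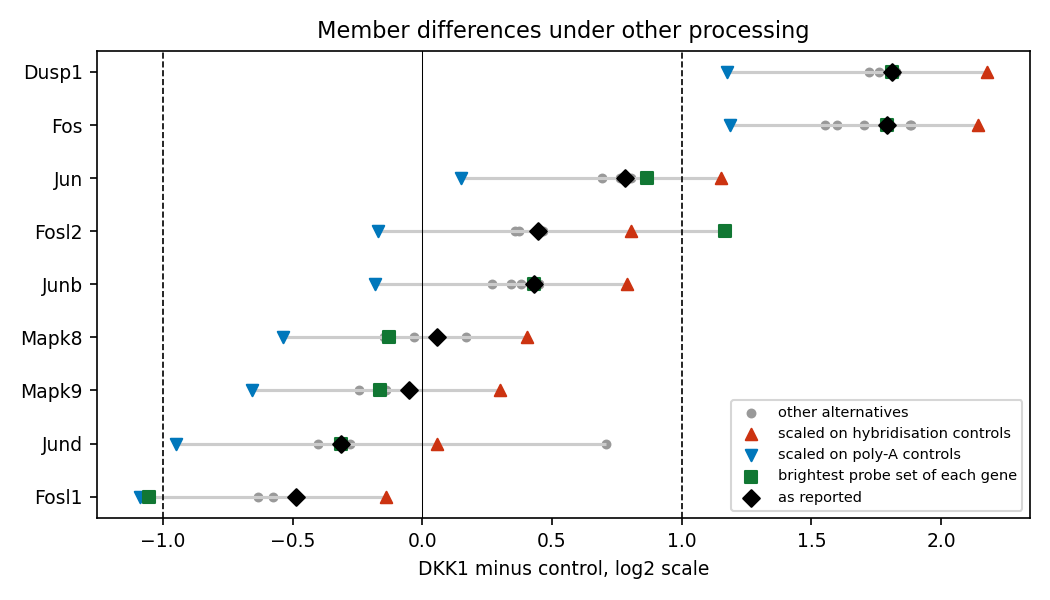
Difference of each measured member (DKK1 minus control, log2 scale) as reported (black diamonds) and under 11 other processing choices, ordered by the reported value. Dusp1 and Fos stay above the dashed 2-fold line throughout, while Mapk8, Mapk9, Fosl2, Junb and Jund have values on both sides of 0.

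Of 45 kinases, scaffolds and Wnt polarity genes of the JNK cascade 32 were measured, with 3 higher, 1 lower and a median of 0.18. These are 9.38% and 3.12% of the list, near or under the 11.7% and 6.91% of all genes. The lower one, Gadd45a, which encodes an activator of the upstream kinase MEKK4, had 9195 in control and 1265 in DKK1 cells (-2.85), while its relative Gadd45g had 1477 and 3656 (1.30). Vangl2, a planar cell polarity gene, differed by 1.82 over 2 probe sets with an SD of 0.51. Its brighter probe set had 51.2 in control and 291 in DKK1 cells, and with dim signals raised to the filter the difference of the gene was 1.84. Map3k11, which encodes the mixed lineage kinase MLK3, had 98.9 and 247 (1.19). The calls of Gadd45g (0.66) and Map3k11 (0.61) ended on the poly-A controls, and that of Map3k11 also under 2 other alternatives.

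Of 17 other MAP kinase phosphatase genes 14 were measured, with 2 higher (14.3%, against 11.7% of all genes), 3 lower (21.4%, against 6.91%) and a median of -0.35. Dusp4, a nuclear relative of Dusp1, had 2330 in control and 287 in DKK1 cells (-2.95), and Dusp6, which acts on ERK, had 2272 and 941 (-1.26). Dusp3 differed by -1.15 over 3 probe sets, with an SD of 0.18. Dusp14 was higher (188 and 682, a difference of 1.77), and so was Dusp22 (65.6 and 602, a difference of 2.91, or 3.08 with the dim control signal raised to the filter and no pseudocount). The calls of Dusp6 (-0.89) and Dusp3 (-0.88) ended on the hybridisation controls, and that of Dusp3 also with the larger pseudocount.

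Basic leucine zipper genes outside the FOS and JUN families had more lower than higher calls. The list is broad, and which of its proteins pair with JUN or FOS was not tested. Of 41 basic leucine zipper genes 31 were measured, with 2 higher, 8 lower and a median of -0.58. Lower calls made up 25.8% of the list, against 6.91% of all genes. Atf3, a stress-induced partner of JUN, had 1565 in control and 98.5 in DKK1 cells (-3.78). Ddit3, which encodes the stress factor CHOP, was lower by 5.45-fold on this scale (-2.45, SD 1.14 between 2 probe sets), Atf6 differed by -1.62 and Maff by -1.43. Several of these answer stress at the endoplasmic reticulum or through ATF4, and Atf4 itself (-1.28, named outside the rule) was among the 8, though its call ended without the filter (-0.89) and on the hybridisation controls (-0.90). The 2 higher genes were Maf (2.62, SD 0.28 over 5 probe sets), whose protein can pair with FOS and JUN, and the clock output gene Dbp (1.26). The call of Maf ended without the filter (2.05), where not all its probe sets shared the sign, and that of Dbp on the poly-A controls (0.65). Scaled on the hybridisation controls 12.9% of the list was lower, against 3.45% of all genes, and on the poly-A controls 59.4%, against 24.1%.

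Immediate early genes were called in both directions. All 47 had a probe set and 44 were measured. Of these, 13 (29.5%, against 11.7% of all genes) were higher and 8 (18.2%, against 6.91%) were lower, and the median was 0.14. The highest were Id3 (720 in control and 6140 in DKK1 cells, 3.06), the kinase gene Sgk1 (1981 and 12167, 2.61), Id1 (732 and 3967, 2.41) and the matricellular gene Ccn2 (300.4 and 1391, 2.15). Id1 and Id3 are best known as targets of bone morphogenetic protein signals. The lowest were Atf3, Plk2 (-2.89), the cyclooxygenase gene Ptgs2 (-2.33) and Myc (-1.53). Atf3 and Maff are also in the basic leucine zipper list, so these 2 lower calls count in both lists. Further classic serum-induced genes were picked after their values were seen. Zfp36 (2.13), Egr2 (1.29) and Nr4a1 (1.04) were called higher like Fos, while Egr1 (3490 and 3852, 0.14) and Ier2 (1767 and 1136, -0.63) were not called. Their relatives Egr3 (-0.30), Nr4a2 (-0.35) and Nr4a3 (-0.10) were not called either. The calls of Egr2 and Nr4a1 ended on the poly-A controls (0.71 and 0.44) and with the larger pseudocount. That of Nr4a1 also ended with median centring (0.95) and quantile normalization (0.83). On the poly-A controls 15.9% of the list was higher, against 4.27% of all genes, and 27.3% lower, against 24.1%. On the hybridisation controls 34.1% was higher, against 21.6%, and 13.6% lower, against 3.45%.

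Of 56 textbook targets of AP-1 42 were measured, with 5 higher, 8 lower and a median of -0.13. The higher calls were 11.9% of the list, the same share as the 11.7% of all genes, and the lower calls 19.0%, against 6.91%. The highest was Thbs1 (272 in control and 7389 in DKK1 cells by its brighter probe set, a gene difference of 3.71 with an SD of 1.38), followed by Vegfd (2.18), Tgm2 (1.77) and the protease gene Plau (1.34), whose control signal of 43.1 was below the filter and whose call ended under 4 alternatives. The lowest were Hmox1 (-3.27), Il6 (-2.46), Nqo1 (-2.13) and the metallothionein gene Mt1 (-1.99). Hmox1 and Nqo1 are also classic targets of NRF2, another basic leucine zipper protein. The call of Tgm2 ended on the poly-A controls. Collagenase and stromelysin, the targets in which AP-1 sites were first studied, are represented by Mmp13 (0.30) and Mmp3 (0.31), which were picked after their values were seen and were not called.

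**Figure D4:**
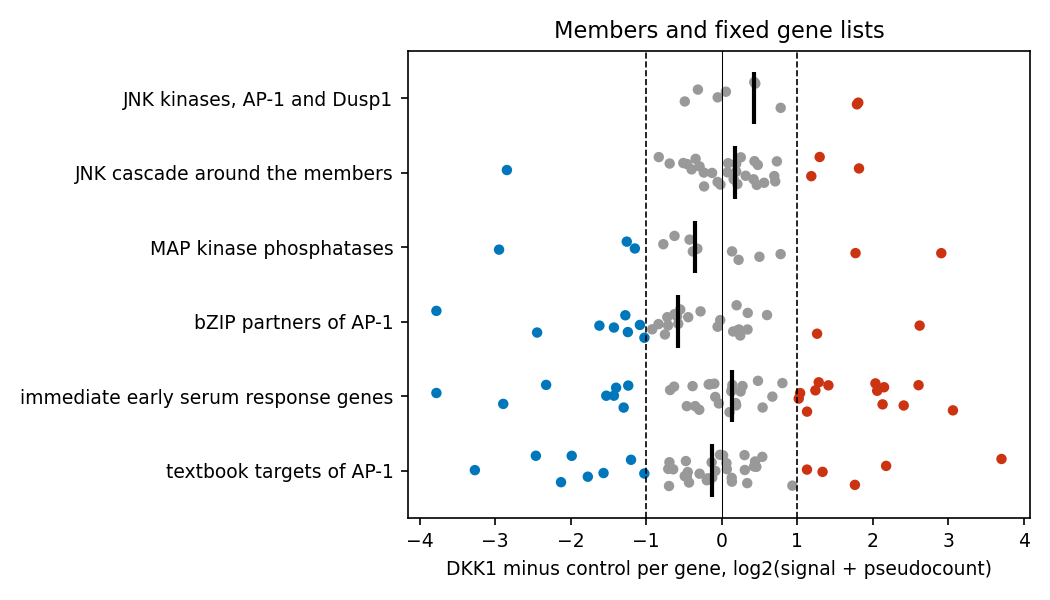
Difference per measured gene (DKK1 minus control, log2 scale) for the 9 measured members and for 5 lists of related genes; red points were called higher, blue points lower, grey points not, and black bars are medians. The median of the basic leucine zipper list lies furthest below 0, at -0.58.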

How the data were processed

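Total RNA of 2 MOS-J samples was hybridised to 1 Affymetrix mouse array each. The authors deposited intensity values, 1 linear signal per probe set. The tool was MAS5, according to the submitters' processing notes, with its version and settings not given in the sources used here, and it scales each array on its own, so a shift shared by all genes is not visible, and the table carries no detection calls. The number of arrays limits the precision.

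Symbols came from the platform annotation, updated by gene ID through RefSeq (GRCm38.p6; 34754 of the 34958 probe sets with 1 symbol matched). Probe sets with several symbols and control probe sets stayed out of the gene values. Differences, the filter, the pseudocount (the 25th percentile of all signals) and calls are as stated with the results, computed with Python 3.11.15, numpy 2.4.6 and pandas 2.3.3. The code was run on simulated data with large changes planted in bright genes, which does not show how reliable the calls are. No test of a gene against replicate error was possible with 1 array a group, no test across genes was run, and the number of calls is a count past a fold. With 1 array each, any batch is confounded with the group, and the pair cannot be told apart.

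The members and gene lists were chosen with earlier results of these data known. Named were all members and, from each list, up to 4 called genes per direction; genes picked outside this rule are marked. Each value was recomputed under 10 other processing choices and 1 added after seeing the data (dim signals raised to the filter).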

Additional observations from a re-analysis of the deposited data

How the results depend on the processing

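Scaled on the hybridisation controls, 2389 genes (21.6%) were called higher and 381 (3.45%) lower. Of the 32 measured JNK cascade genes 6 (18.75%) were higher. Lower were 1 of 14 phosphatases (7.14%) and 4 of 31 basic leucine zipper genes (12.9%). Scaled on the poly-A controls, 472 genes (4.27%) were called higher and 2663 (24.1%) lower, and 1 member was lower (Fosl1). Of 32 JNK cascade genes 1 was higher (3.12%) and 6 lower (18.75%), and of 15 phosphatases 7 were lower (46.7%). Of 32 basic leucine zipper genes 1 was higher (3.12%) and 19 lower (59.4%). Of 44 immediate early genes 7 were higher (15.9%) and 12 lower (27.3%). Of 42 AP-1 targets 2 were higher (4.76%) and 17 lower (40.5%). These 2 scalings shift all genes by construction. By the brightest probe set of each gene 1 member was called lower (Fosl1), against 8.34% of all genes, and 3 higher (Fos, Dusp1 and Fosl2), against 12.0%. With the larger pseudocount 3 AP-1 targets were called higher (7.14%, against 8.26% of all genes). With both signals required at the filter 1 phosphatase was called higher (7.69%, against 9.11%). Without the filter Fosb was called higher, at 2.17, as were 9.50% of all genes there. Higher genes made up 62.9% of all calls as deposited, 49.8% after quantile normalization, 86.2% on the hybridisation and 15.1% on the poly-A controls. Fos and Dusp1 were called higher under all 11 alternatives, some of which could not change a bright gene with 1 probe set. No paired analysis was possible because each group has 1 array. Dim probe sets, such as that of Fosb, give only bounds.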

Other observations

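The neighbours of the members on their chromosomes, taken in the gene order of RefSeq (GRCm38.p6), were added after the data were seen and are given as values. Fos lies beside Jdp2 and Batf, which encode leucine zipper proteins that pair with JUN and can repress AP-1. Jdp2, next to Fos on 1 side, was called lower (-1.08, with 4673 in control and 2196 in DKK1 cells), and Batf, the next gene, had -0.72 and was not called. The call of Jdp2 ended on the hybridisation controls and without the filter. On the other side of Fos, Tmed10 had 0.31 and Nek9 0.68. Neither of these was called. For Dusp1 the adjacent gene Ergic1 had 0.34 over 4 probe sets, and the gene on the other side, Neurl1b, was not measured. Among up to 3 protein-coding genes on each side of each member, 5 were called: Jdp2 as lower, and as higher Drap1 (1.05) and Ccdc85b (2.71) near Fosl1, Babam2 (1.17) next to Fosl2 and Crebrf (1.19) near Dusp1. Of all measured genes 18.6% were called. The share among the neighbours was not worked out, so the 5 calls are not read as a pattern around the members. Neither Fosl1 nor Fosl2 was called.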
